A study of Homo sapiens with 24 samples.

Results

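The mRNAs described here are 6 transcripts that were reported earlier to be bound by IGF2BP1 and that lie outside MYC, actin and the cell cycle: SIRT1, CD44, CTNNB1, BTRC, IGF2 and MAPK4. They were taken by gene symbol from the 58174 genes listed for each line. All 6 were listed in each of the 4 lines, 4 of them passed the minimum level for testing in every line, and IGF2 and MAPK4 passed it in none. IGF2BP1, an RNA-binding protein of the embryo that many tumours make again, was lowered with a pool of siRNAs (siI1), and control cells received a control siRNA (siC), so the cells of every group were transfected. A549 lung adenocarcinoma, ES2 ovarian carcinoma and MV3 melanoma cells were harvested 72 h after transfection and PANC1 pancreatic carcinoma cells after 96 h, with 3 libraries of rRNA-depleted total RNA in each of the 8 groups, which the study describes as biological replicates. Each line stands for 1 established culture, and no rescue of IGF2BP1 was analysed here.

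IGF2BP1 binds mRNAs mostly through its KH domains and is known to protect many of them from decay, in part by keeping microRNA-loaded complexes away from 3'UTR sites. MicroRNAs find such sites by pairing of their seed, the bases 2 to 8 from the 5' end, with the mRNA. The transcripts described here carry out different tasks. SIRT1 encodes an NAD-dependent deacetylase, CD44 the hyaluronan receptor of the cell surface, CTNNB1 β-catenin, the Wnt effector and adherens junction protein, and BTRC the substrate receptor β-TrCP of an SCF ubiquitin ligase, which among others marks β-catenin for degradation. IGF2 encodes the fetal growth factor after which the IGF2BP proteins were named, and MAPK4 an atypical MAP kinase.

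Libraries of A549 held 3105215 to 4553326 reads assigned to genes, those of ES2 6421764 to 8419467, those of MV3 15572492 to 20082702 and those of PANC1 6532175 to 8472851. Levels are FPKM, reads per kilobase of gene scaled by library depth, so they may be compared between genes, and each line was normalised on its own, so that an order of lines joins separately scaled tables. Keratins 8 and 18 were highest in PANC1 (means of 848 and 251 FPKM over all libraries) and A549 (377 and 109). They were also present in ES2 (11 and 43.2) and MV3 (3.35 and 18.5). Of the other pancreatic duct markers, KRT19 (731) and PDX1 (1.8) were highest in PANC1, and SOX9 was at 18.2 there and 18.9 in ES2. KRT7 was at 2.53 in PANC1 beside 274 in A549 and 128 in ES2, and GATA6 was lowest in PANC1 (0.0427). The lung marker NKX2-1 was at 0 in A549, and the melanocyte markers SOX10 and TYR were at 0 in MV3. MITF was at 0.266 FPKM in MV3, below A549 (3.28), ES2 (1.85) and PANC1 (7.03). PAX8 was at 0.2 FPKM in ES2. The leukocyte gene PTPRC was at most at 0.00553 FPKM on average in any line. The most abundant gene of each library was RN7SL2, an RNA of the signal recognition particle, with 8.74% to 12.8% of reads in the siC and 17.7% to 20.9% in the siI1 libraries of PANC1, against 3.44% to 8.93% in the other lines.

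The targeted gene was lower in every siI1 library. In A549, IGF2BP1 stood at 39.8, 39.8 and 39.6 FPKM in siC and at 15.3, 16.4 and 15.2 FPKM in siI1. In ES2 the values were 13.1, 14 and 12.1 FPKM against 4.22, 4.19 and 4.03 FPKM. In MV3 they were 9.09, 9.64 and 9.06 FPKM against 3.02, 2.95 and 2.77 FPKM. The lowest remaining level was in PANC1, where 11.2, 11.3 and 11 FPKM in siC stood against 2.75, 2.87 and 2.71 FPKM in siI1. The mean FPKM changed by -60.6% (A549), -68.3% (ES2), -68.6% (MV3) and -75.1% (PANC1), with limma adjusted p-values from 5.93e-05 to 0.000319.

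Several of these mRNAs are known targets of single microRNAs: miR-34a acts on SIRT1 and CD44, miR-200a on SIRT1 and CTNNB1, and IGF2BP1 was described to shield BTRC from miR-183. Mature sequences (RefSeq) are shown with the seed in capitals, since the sites below are read from them.
hsa-miR-34a-5p: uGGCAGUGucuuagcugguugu
hsa-miR-200a-3p: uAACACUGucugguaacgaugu
hsa-miR-183-5p: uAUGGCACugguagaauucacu

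For each gene the 1 transcript with the longest annotated 3'UTR was taken, which need not be the one these cells express. Its 3'UTR (GENCODE release 44, hg38, transcript strand only) was searched for the 7 letters opposite the seed, or opposite bases 2 to 7 followed by A. These were CACTGCC or ACTGCCA for miR-34a, CAGTGTT or AGTGTTA for miR-200a and GTGCCAT or TGCCATA for miR-183. The sites found in the 4 expressed members are shown with the matching letters in capitals, because they are the stretches these microRNAs could pair with.
SIRT1, miR-34a, chr10:67917469-67917490, plus strand: ttccacaagtattaaACTGCCA
SIRT1, miR-34a, chr10:67918012-67918033, plus strand: ccagctaggaccattACTGCCA
SIRT1, miR-200a, chr10:67918307-67918328, plus strand: ttgaaatacaaaacCAGTGTTt
CD44, miR-34a, chr11:35231213-35231234, plus strand: ccactatgtgttgttACTGCCA
CTNNB1, miR-200a, chr3:41240024-41240045, plus strand: ttttaagtctctcgtAGTGTTA
BTRC, miR-200a, chr10:101556902-101556923, plus strand: taagtcgtattttaaAGTGTTA

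SIRT1 was the only one of these 4 members with more than 1 match in its 3'UTR, 2 for miR-34a and 1 for miR-200a. The coding sequences were searched too, and held 1 match for miR-34a and 1 for miR-200a in BTRC and 1 for miR-183 in CTNNB1, so that BTRC had 3 matches over both parts, as SIRT1 had. Such matches are frequent: 24.74% of 3'UTRs, over 9587 protein-coding genes that could be tested throughout, held one for miR-34a, 29.39% for miR-200a and 20.84% for miR-183. The letters opposite the miR-183 seed were in neither the 3'UTR nor the coding sequence of the transcript used for BTRC. The 3'UTR of IGF2 held 1 match for each of the 3 microRNAs, and that of MAPK4 held 2 for miR-183 and none for miR-34a or miR-200a. A match is a description of letters, and levels of microRNAs were not analysed here.

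The 3'UTRs also differed in length and composition. They measured 1797 nt in SIRT1, 3069 nt in CD44, 1101 nt in CTNNB1 and 4198 nt in BTRC, beside a median of 1535 nt over the 9587 genes. The SIRT1 3'UTR had 31.1% G and C, and 6.51% of the genes had a lower share. CATT, one of the CAT words that IGF2BP proteins are known to prefer, occurred 9.46 times per kb in SIRT1 and 9.45 times per kb in CD44, above 92% and 91.9% of the genes, and 4.54 and 5 times per kb in CTNNB1 and BTRC, beside a median of 5.243. The AU-rich word ATTTA occurred 5.01 times per kb in SIRT1, above 92% of the genes, and 2.28, 0.908 and 1.19 times per kb in CD44, CTNNB1 and BTRC. CATC was less dense in SIRT1 (1.11 per kb) than the median (3.067), and GGAC likewise (1.67 against 2.291). CATA occurred 3.34 times per kb in SIRT1 and 3.58, 0.908 and 2.62 times in CD44, CTNNB1 and BTRC, beside a median of 2.81. These ranks were not corrected for the share of G and C.

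SIRT1 was lower after knockdown in ES2, MV3 and PANC1. The gene lies on the plus strand of chr10:67884656-67918390. In PANC1 the siC libraries held 10.4, 13.1 and 13 FPKM and the siI1 libraries 6.49, 6.61 and 7.47 FPKM, so that the groups did not overlap and the mean fell by 43.5%. The share of all genes whose groups stood apart was not counted, so such a gap, here and below, is a description and not a test. The log2 fold change was -0.78 (95% CI -1.03 to -0.52, limma adjusted p = 0.00448). Among the 15846 genes tested in PANC1, 6.25% had a lower log2 fold change, while 13.4% of genes were called lower and 11.3% higher.

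In ES2, SIRT1 stood at 5.41, 5.36 and 5.24 FPKM in siC and at 3.82, 4.21 and 3.54 FPKM in siI1. The groups again stood apart, and the mean fell by 27.8%. The log2 fold change was -0.43 (95% CI -0.62 to -0.23, limma adjusted p = 0.0127), in a line where 13.0% of the genes tested were called lower and 10.5% higher. In MV3 the 3 siC values were 4.67, 4.01 and 4.58 FPKM and the 3 siI1 values 3.12, 2.83 and 3.56 FPKM. The lowest siC library lay above the highest siI1 library, and the mean fell by 28.3%, with a log2 fold change of -0.43 (95% CI -0.65 to -0.20, limma adjusted p = 0.0154) where 19.5% of genes were called lower and 16.3% higher. Without the first siC library of MV3 the adjusted p was 0.0528.

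In A549, SIRT1 held 8.14, 8.5 and 7.17 FPKM in siC and 6.62, 4.2 and 5.4 FPKM in siI1. All siI1 values lay below all siC values, and the log2 fold change was -0.53 (95% CI -0.93 to -0.13), but the test was not passed (limma adjusted p = 0.0895). The siI1 libraries of A549 spread widely, with a coefficient of variation of 22.4% beside 10.5% from counting alone, and rested on 87 to 97 reads each. When reads were recovered from the values and tested with voom, the adjusted p was 0.000452 at a log2 fold change of -0.60. The study, which tested counts with edgeR, names SIRT1 among the genes it called lower in every one of its lines, A549 included. In A549, 7.83% of the genes tested were called lower and 5.93% higher.

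Over the 4 lines together, SIRT1 had a mean log2 fold change of -0.54 (95% CI -0.67 to -0.41, limma adjusted p = 5.29e-07), a fold of 0.688 (95% CI 0.629 to 0.752). Of the 12816 genes tested in every line, 28.1% were called lower on this average and 20.5% higher, and 4.6% had a lower value than SIRT1. A fall in all lines that passes the test in at least 3 was found in 6.15% of these genes. The difference between the lines in the response of SIRT1 was not past the threshold (limma F-test of the interaction, adjusted p = 0.262), where 45.0% of genes passed it. The PANC1 value of -0.78 and the values of -0.43 in ES2 and MV3 therefore cannot be told apart by this test, which does not show them to be equal. As in all bulk RNA, fewer cells with the transcript and less of it per cell cannot be told apart.

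In siC, SIRT1 was highest in PANC1 (12.1 ± 1.5 FPKM, SD, n = 3), followed by A549 (7.94 ± 0.69), ES2 (5.33 ± 0.0858) and MV3 (4.42 ± 0.358), and no 2 neighbours in this order overlapped. In every line SIRT1 lay below CD44 and CTNNB1 in siC. It lay above BTRC in PANC1, close to BTRC in A549 and below BTRC in ES2 and MV3. SIRT1 rested on 87 to 506 reads per library.

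**Figure D1:**
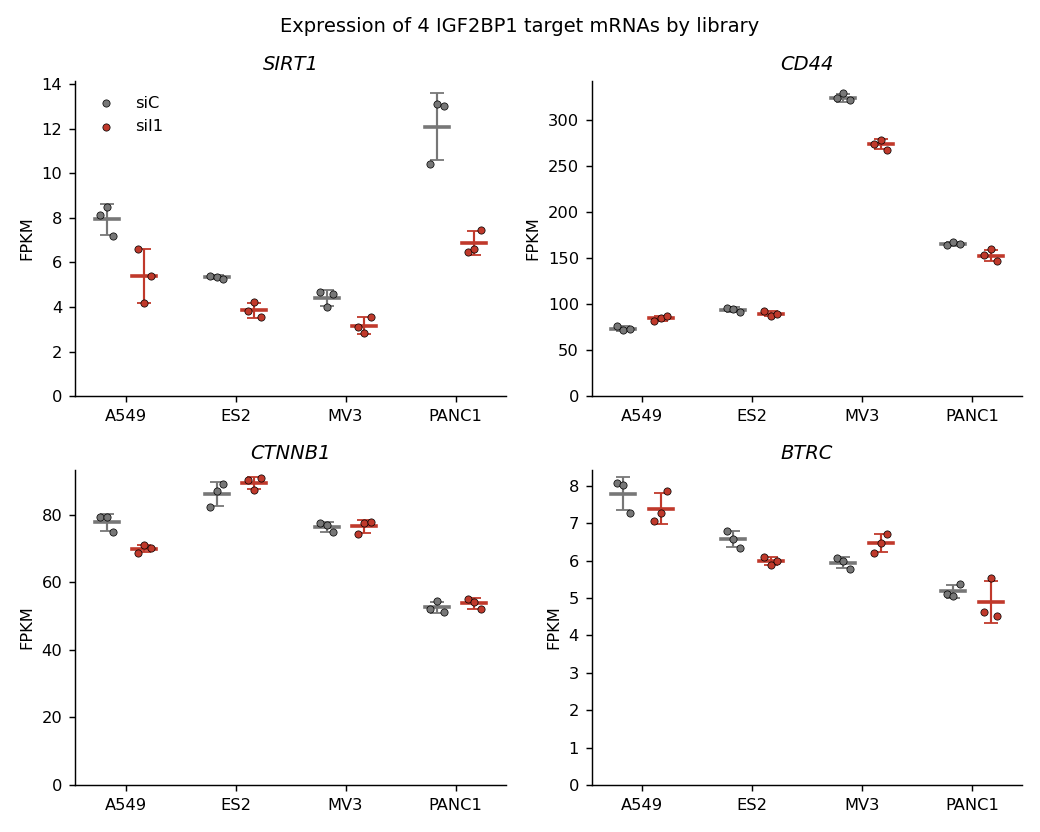
Level in FPKM (vertical axes, linear, from 0) of SIRT1, CD44, CTNNB1 and BTRC in each library, by line, siC in grey and siI1 in red. Points are libraries, bars are means and whiskers SDs of 3 libraries; SIRT1 lies lower in siI1 without overlap in each line, CD44 lies highest in MV3, at 268 to 330 FPKM, and the siC and siI1 points of CTNNB1 and BTRC lie close together.

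CD44 changed by little and not in 1 direction. It was lower in MV3, where it was most abundant, and higher in A549, where it was least abundant. The gene lies on the plus strand of chr11:35138882-35232402. In MV3 the siC libraries held 324, 330 and 322 FPKM and the siI1 libraries 274, 279 and 268 FPKM. The groups were well apart, and the mean fell by 15.9%, with a log2 fold change of -0.25 (95% CI -0.33 to -0.17, limma adjusted p = 0.00184).

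In A549, CD44 stood at 76.3, 71.9 and 72.8 FPKM in siC and at 81.4, 85.1 and 87.5 FPKM in siI1. Here every siI1 library lay above every siC library, with a log2 fold change of 0.20 (95% CI 0.08 to 0.32, limma adjusted p = 0.0432), a fold of 1.15. This call was lost whichever of the 6 libraries was left out, with adjusted p-values from 0.0522 to 0.119 and log2 fold changes from 0.18 to 0.23.

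In ES2 the CD44 values were 96.4, 94.8 and 91.8 FPKM in siC and 92.7, 87 and 89.9 FPKM in siI1. The groups overlapped, and the log2 fold change of -0.07 (95% CI -0.17 to 0.03) did not pass the test (limma adjusted p = 0.287). In PANC1 they were 164, 168 and 166 FPKM against 154, 160 and 147 FPKM. These groups did not overlap, but the log2 fold change of -0.11 (95% CI -0.24 to 0.02) did not pass either (limma adjusted p = 0.174).

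The responses of CD44 differed between the lines (limma F-test of the interaction, adjusted p = 2.16e-05). Its mean over the 4 lines, a log2 fold change of -0.06 (95% CI -0.10 to -0.02, limma adjusted p = 0.0164), joins lines of opposite sign and amounts to a fold of 0.961. CD44 was the most abundant of the members in MV3, PANC1 and ES2, with siC means of 325 ± 4.37, 166 ± 2.3 and 94.3 ± 2.34 FPKM (SD, n = 3), and stood at 73.6 ± 2.32 FPKM in A549. No neighbours in this order overlapped. CD44 is spliced into a standard and many variant forms, and the values here sum all of them.

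CTNNB1 showed no change past the threshold in any line. The gene lies on the plus strand of chr3:41194741-41260096. In A549 the siC libraries held 79.4, 79.3 and 74.9 FPKM and the siI1 libraries 68.8, 71 and 70.3 FPKM. The groups stood apart with a log2 fold change of -0.15 (95% CI -0.26 to -0.05, limma adjusted p = 0.0743). With voom on the recovered reads the adjusted p was 0.0388, and with a spread shared over all libraries it was 0.0044.

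In the other lines the CTNNB1 values overlapped. ES2 held 82.2, 87.2 and 89 FPKM in siC and 90.3, 87.4 and 90.8 FPKM in siI1, with a fold of 1.04 (95% CI 0.965 to 1.12). MV3 held 77.6, 77 and 74.8 FPKM against 74.4, 77.7 and 77.8 FPKM, a fold of 1 (95% CI 0.951 to 1.06). PANC1 held 52.2, 54.4 and 51.1 FPKM against 55.2, 54.1 and 52.1 FPKM, a fold of 1.02 (95% CI 0.94 to 1.11). Folds below 0.94 or above 1.12 lie outside all of these intervals.

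The mean log2 fold change of CTNNB1 over the lines was -0.01 (95% CI -0.05 to 0.02, limma adjusted p = 0.556). The lines nevertheless differed in response (limma F-test of the interaction, adjusted p = 0.0142), with A549 on the lower side, a call that a block on the replicate number ended (adjusted p = 0.0578). In siC, CTNNB1 stood at 86.1 ± 3.53 FPKM in ES2, 77.8 ± 2.56 in A549, 76.5 ± 1.5 in MV3 and 52.6 ± 1.71 in PANC1 (SD, n = 3). A549 and MV3 overlapped in this order, ES2 lay above both and PANC1 below.

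BTRC did not pass the test in any line either, with the deposited scaling. The gene lies on the plus strand of chr10:101354033-101557321. In MV3 it stood at 6.08, 5.99 and 5.77 FPKM in siC and at 6.21, 6.48 and 6.72 FPKM in siI1, all above siC, with a log2 fold change of 0.11 (95% CI -0.00 to 0.23, limma adjusted p = 0.114). In ES2 it stood at 6.78, 6.59 and 6.35 FPKM against 6.11, 5.89 and 5.98 FPKM, all below siC, with a log2 fold change of -0.12 (95% CI -0.27 to 0.02, limma adjusted p = 0.189). These lines thus lay on opposite sides of 0, yet neither value passed. With the same total reads in every library BTRC passed in MV3 (0.17, limma adjusted p = 0.0231), where the median of all genes was 0.06.

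In A549, BTRC held 8.08, 8.02 and 7.28 FPKM in siC and 7.05, 7.28 and 7.85 FPKM in siI1, and in PANC1 5.1, 5.06 and 5.38 FPKM against 4.62, 5.53 and 4.52 FPKM. The groups overlapped in both, with folds of 0.952 (95% CI 0.829 to 1.09) and 0.946 (95% CI 0.81 to 1.1). With the same sum of FPKM, BTRC passed in PANC1 (-0.74, limma adjusted p = 0.00701), where the median of all genes was -0.66. The mean log2 fold change over the lines was -0.04 (95% CI -0.11 to 0.03, limma adjusted p = 0.316), and the interaction test was not passed (adjusted p = 0.136). Without the second siI1 library of PANC1 the interaction passed, with an adjusted p of 0.0269. In siC, BTRC ranged from 5.18 ± 0.175 FPKM in PANC1 to 7.79 ± 0.447 FPKM in A549 (SD, n = 3), and rested on 150 to 872 reads per library.

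**Figure D2:**
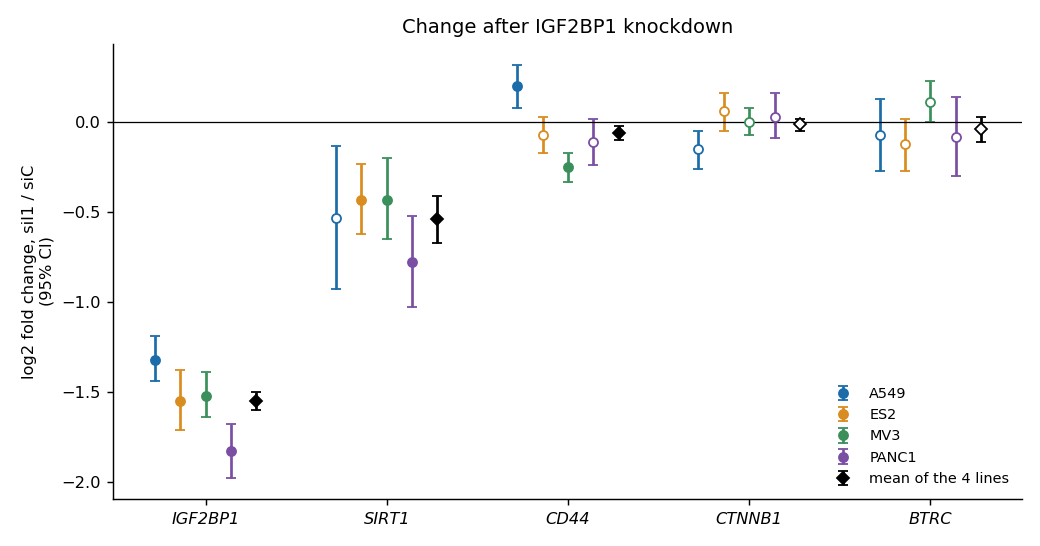
Log2 fold change of siI1 over siC (vertical axis) with 95% confidence interval for IGF2BP1 and the 4 tested members, by line (circles) and as the mean of the 4 lines (diamonds). Filled symbols have a limma adjusted p under 0.05; the SIRT1 symbols lie between -0.78 and -0.43, and those of CD44, CTNNB1 and BTRC between -0.25 and 0.20.

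In PANC1 the share of RN7SL2 was higher in the siI1 libraries, as given above, and its part in the values of that line was not tested. When libraries were set to the same total of reads, the median log2 fold change of all genes in PANC1 was -0.18, and with the same sum of FPKM it was -0.66, against -0.04 with the deposited scaling. Lower genes made up 54.3% of those called in PANC1 with the deposited scaling, 76.9% with the same total reads and 99% with the same sum of FPKM. In MV3 the share moved from 54.5% to 44% with the same total reads, and in ES2 from 55.4% to 44.1% with the same sum of FPKM. Relative to these medians, SIRT1 in PANC1 stood at -0.75 and -0.79, and CD44, CTNNB1 and BTRC at -0.10, 0.05 and -0.05 with the same total reads and at -0.20, -0.05 and -0.08 with the same sum of FPKM.

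IGF2 was barely detected. The gene lies on the minus strand of chr11:2129112-2158391. In A549 its siC libraries held 0, 0 and 1 read and its siI1 libraries 4, 5 and 2 reads, which gave up to 0.199 FPKM. In MV3 there were 7, 4 and 3 reads in siC and 10, 8 and 22 reads in siI1, and in PANC1 6, 8 and 8 reads against 6, 10 and 10 reads. In ES2, 1 read was found in siC and none in siI1. More reads thus fell in siI1 than in siC in A549, MV3 and PANC1. By reads the groups were apart in A549 and MV3, and by FPKM, which takes depth into account, only in A549.

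Summed over the 3 libraries of a group and scaled by depth, the ratio of IGF2 in siI1 to siC was 2.22 in MV3 (95% exact interval 1.18 to 4.41) and 1.48 in PANC1 (0.809 to 2.75). In A549 it was 12.1 (1.76 to 521), with a single read in siC. These intervals cover counting error alone and not the spread between libraries. When no minimum was set on the level, limma gave IGF2 an adjusted p of 0.17 in A549, 0.357 in MV3 and 0.552 in PANC1. It thus passed in none of these lines, nor in ES2 (0.82). The 0.5 FPKM added before the log exceeded every IGF2 value, so the log2 fold changes were small, at 0.35 in A549 and 0.14 in MV3. On the mean over the lines, 3 members were called with no minimum, against 2 in the main test. The added member was IGF2, a call resting on at most 22 reads per library. Of the 7146 exonic bases annotated for IGF2, 20.4% are shared with the read-through gene INS-IGF2, which was at 0 in all libraries, and 4.7% with IGF2-AS, which had 3 reads in all, 1 in siC and 2 in siI1 of MV3. Whether reads were counted by strand is not given in the sources used here, so reads of IGF2 and IGF2-AS cannot be told apart where they overlap.

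**Figure D3:**
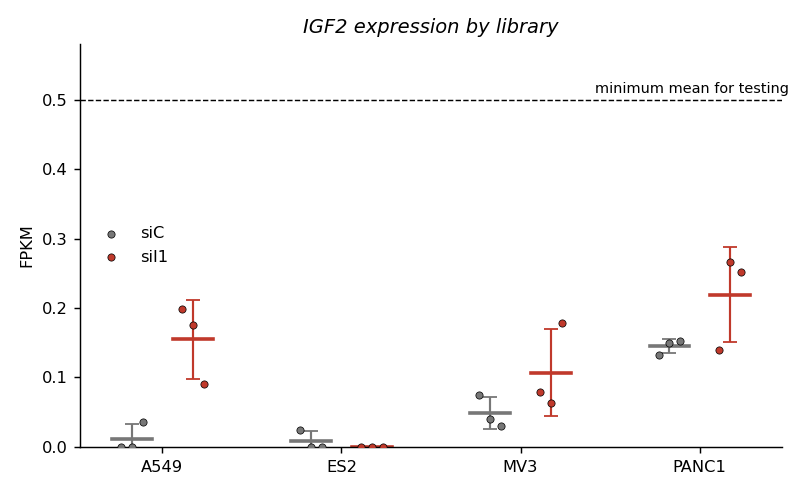
IGF2 level in FPKM (vertical axis, linear, from 0) in each library by line, siC in grey and siI1 in red, with means and SDs of 3 libraries; the dashed line marks the mean of 0.5 FPKM needed for testing. All libraries lie below 0.27 FPKM, those of ES2 at or near 0.

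MAPK4 had no read in any of the 24 libraries. A floor of 3 reads per library corresponds to 0.0195 to 0.0262 FPKM in MV3, the deepest line, and to 0.0868 to 0.123 FPKM in A549, the shallowest. The gene lies on the plus strand of chr18:50560087-50731826. Its paralog MAPK6, the other kinase of this atypical pair, was expressed at 28.6, 23.6, 22.1 and 25.9 FPKM in siC of A549, ES2, MV3 and PANC1. MAPK6 rose in A549 (log2 fold change 0.53, limma adjusted p = 0.0056), fell in MV3 (-0.32, 0.000538) and was at 0.02 and 0.06 in ES2 and PANC1, where it did not pass.

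The genes around each member were read from lists that were chosen with earlier results of these data known, and they are described by counts beside the background of all genes given above. Pairs of values in brackets are a log2 fold change and its limma adjusted p. For SIRT1 the list held the other sirtuins, enzymes of NAD synthesis and regulators of SIRT1. Of its 11 tested genes in A549 none was lower and 1 higher, of 12 in ES2 2 were lower and none higher, of 12 in MV3 1 was lower and 2 higher, and of 11 in PANC1 2 were lower and 4 higher. The median log2 fold changes were -0.07, -0.18, 0.08 and 0.17, beside -0.01, -0.02, 0.01 and -0.04 for all genes. No other sirtuin passed the test in A549, ES2 or MV3, and SIRT2, SIRT4 and SIRT6 were called higher in PANC1, where SIRT1 was lower. For SIRT4 only the call was limited to PANC1. Its log2 fold change was 1.01 there and 1.06, 0.83 and 0.83 in A549, ES2 and MV3. It was also a low gene, with siC means from 0.416 FPKM in ES2 to 1.05 FPKM in A549. With the same sum of FPKM, SIRT2 and SIRT6 in PANC1 were at -0.42 and -0.22, above the median of all genes (-0.66) by 0.24 and 0.45. The calls rested on nearly all libraries: SIRT2 and SIRT4 lost theirs without any 1 library except the second siC library (adjusted p 0.0783 to 0.128), and SIRT6 without any 1 of the 6 (0.053 to 0.108).

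NAMPT, the rate-limiting enzyme of the NAD salvage pathway that feeds SIRT1, changed in every line. It rose in A549 from 45.7 ± 3.67 to 74.6 ± 2.88 FPKM (limma adjusted p = 0.00264). It fell in ES2 from 16 ± 0.878 to 11.3 ± 0.203 FPKM (0.00237), in MV3 from 24.3 ± 0.101 to 19.2 ± 0.427 FPKM (0.000488) and in PANC1 from 7.1 ± 0.23 to 5.19 ± 0.334 FPKM (0.0095; SD, n = 3). NMNAT2, an enzyme of NAD synthesis best known from neurons, rose in MV3 (log2 fold change 1.04, limma adjusted p = 0.000166). CCAR2, an inhibitor of SIRT1, had log2 fold changes from -0.28 to 0.17 and was called lower in ES2 only (limma adjusted p = 0.0101).

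For CD44 the list held hyaluronan synthases and hyaluronidases, the hyaluronan receptor HMMR, the ligand SPP1, the ERM linkers with NF2, and the splicing factors ESRP1 and ESRP2. A549 had 2 of its 10 tested genes lower and 1 higher, ES2 4 and 3 of 10, MV3 4 and 1 of 9, and PANC1 4 and 1 of 11. The medians were -0.09, -0.16, -0.20 and -0.05. HMMR fell in ES2 (log2 fold change -0.46, limma adjusted p = 0.00349), MV3 (-0.31, 0.00979) and PANC1 (-0.69, 0.000951), and was at -0.25 in A549 without passing (0.106). HMMR is also a spindle protein whose mRNA follows the cell cycle.

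The enzymes that make and cut hyaluronan differed by line. HAS3 rose in A549, from 12.5 ± 0.505 to 22.2 ± 1.58 FPKM (limma adjusted p = 0.00189). HAS2 was called lower in PANC1 (-0.91, 0.0184), a call lost without any 1 library except the second siC and second siI1 (adjusted p 0.0632 to 0.0742). CEMIP, which binds and degrades hyaluronan, stood in ES2 at 0.246 ± 0.0535 FPKM in siC and 2.95 ± 0.373 FPKM in siI1. HYAL3, a hyaluronidase gene, rose in ES2 (0.99, 0.00259) and was called higher in PANC1 (0.90, 0.0127) and MV3 (0.38, 0.0429), the last of which was lost without any 1 library except the first siC library (adjusted p 0.0504 to 0.126). SPP1, which encodes osteopontin, stood in PANC1 at 0.982 ± 0.0385 FPKM in siC and 0.0226 ± 0.0392 FPKM in siI1. CEMIP in ES2 and SPP1 in PANC1 reached the minimum level only through the group where they were high, so their calls, counted above, carry no weight. Of the linkers between CD44 and actin, EZR fell in ES2 (-0.60, 0.00119) and MV3 (-0.20, 0.0132), and MSN in ES2 (-0.35, 0.00929). RDX fell in A549 (-0.57, 0.00547) and MV3 (-0.21, 0.00263). It was called lower in PANC1 (-0.25, 0.0232), a call lost without the first siC library or any 1 siI1 library (adjusted p 0.0522 to 0.0767). RDX was called higher in ES2 (0.26, 0.0351), a call lost without any 1 library except the first siC library (adjusted p 0.0606 to 0.113). NF2, which encodes the ERM relative merlin, fell in ES2 (-0.47, 0.00583) and MV3 (-0.32, 0.00378) and was called lower in A549 (-0.34, 0.0487), a call lost without any 1 of the 6 libraries (0.0782 to 0.123).

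For CTNNB1 the list of Wnt components held 16 tested genes in A549, ES2 and PANC1 and 14 in MV3. Lower and higher calls numbered 2 and 1 (A549), 3 and 0 (ES2), 4 and 2 (MV3), 2 and 1 (PANC1), with medians of -0.14, -0.11, -0.10 and -0.13. CSNK1A1, the kinase that primes β-catenin for degradation, fell in all lines, from 23.9 ± 1.54 to 16.2 ± 0.624 FPKM in A549 (limma adjusted p = 0.00508) and from 32.2 ± 1.29 to 21.8 ± 0.112 FPKM in ES2 (0.000704). It fell from 33.2 ± 0.39 to 27 ± 0.451 FPKM in MV3 (0.000566) and from 22.5 ± 1.04 to 14.8 ± 0.964 FPKM in PANC1 (0.00275). A fall past the threshold in all lines was found in 2.51% of the 12816 genes. GSK3A, another kinase of the destruction complex, was called lower in A549, ES2 and MV3, with log2 fold changes of -0.42, -0.37 and -0.41, and DVL1, which relays the Wnt signal, fell in ES2 (-0.55, 0.0034) and MV3 (-0.50, 0.00031). GSK3A lost its call in A549 without any 1 library except the third siI1 library (adjusted p 0.0649 to 0.0827), and in ES2 without any 1 except the second siC library (0.0908 to 0.107).

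The list of direct Wnt target genes held AXIN2, NKD1, RNF43, ZNRF3, LGR5, SP5, NOTUM, TNFRSF19, TCF7 and LEF1. Of these 10, 5 passed the minimum level in A549, 4 in ES2 and 2 in MV3 and PANC1. ZNRF3 passed it in every line, at 6.22, 3.41, 2.17 and 1.76 FPKM in siC of A549, ES2, MV3 and PANC1. AXIN2 was tested in A549 only, where it was at 3.26 ± 0.326 FPKM in siC and 2.22 ± 0.572 FPKM in siI1 (limma adjusted p = 0.174). ZNRF3 was called lower in MV3 (-0.29, 0.0305), a call lost without any 1 library except the first siC library (adjusted p 0.0686 to 0.0995). RNF43 stood in A549 at 1.47 ± 0.501 FPKM in siC and 0.282 ± 0.115 FPKM in siI1, and reached the minimum level there only through siC, so its call carries no weight.

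Among partners of β-catenin at the adherens junction, 3 of 7 tested genes were lower and none higher in A549, 1 and 2 of 5 in ES2, 2 and 1 of 4 in MV3, and 1 and 1 of 7 in PANC1, with medians of -0.19, -0.02, -0.12 and 0.04. The genes lower in A549 were CDH1, or E-cadherin (18.4 ± 0.454 to 9.66 ± 1.24 FPKM, limma adjusted p = 0.00352), JUP, or plakoglobin (31.7 ± 1.94 to 19.3 ± 1.55 FPKM, 0.00382), and CTNND1, or p120-catenin (44.4 ± 1.52 to 30.8 ± 1.22 FPKM, 0.00281). CTNND1 was called higher in ES2 (0.21, 0.0235) and MV3 (0.11, 0.0209). The ES2 call was lost without any 1 library except the third siC and first siI1 (adjusted p 0.0603 to 0.0836), and the MV3 call without the first siC, second siC or second siI1 library (0.0535 to 0.0705). In PANC1 CDH1 fell as well, from 4.55 ± 0.453 to 1.2 ± 0.336 FPKM (0.00237), while JUP, a close relative of β-catenin, rose from 34.2 ± 4.76 to 79.8 ± 6.66 FPKM (0.00165). CDH1 and JUP were at or below 0.0408 FPKM in ES2 and MV3. CDH2, or N-cadherin, rose in ES2 from 26 ± 2.8 to 40.4 ± 1.25 FPKM (0.00347), and was nearly absent from MV3. CTNNA1, or α-catenin, passed in no line.

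For BTRC the list held the SCF subunits, the paralog FBXW11 and mRNAs of known substrates, with 14 genes tested in each line. Lower and higher calls numbered 1 and 1 (A549), 4 and 2 (ES2), 4 and 2 (MV3), 3 and 4 (PANC1), with medians of 0.05, -0.13, 0.02 and -0.03. FBXW11, which encodes β-TrCP2, was more abundant than BTRC in every line, at 21.6, 25.8, 23 and 40.4 FPKM in siC of A549, ES2, MV3 and PANC1, and passed in none. CUL1, the scaffold of the ligase, was called lower in ES2, MV3 and PANC1 (-0.32, -0.23 and -0.30), and lost its call in ES2 without any 1 library except the second siC and the third siI1 (adjusted p 0.0648 to 0.0693) and in PANC1 without any 1 except the first siC and second siI1 (0.0527 to 0.0685). Other parts of the ligase lay higher in PANC1. CDC34, a ubiquitin-conjugating enzyme that works with it, rose from 24.5 ± 3.02 to 43.9 ± 1.42 FPKM (0.00227). NEDD8, the modifier that activates CUL1, and the RING subunit RBX1 were called higher (0.36, 0.0188, and 0.31, 0.0498), but RBX1 lost its call without any 1 library except the second siC (0.0625 to 0.14) and NEDD8 without the first siC, the third siC or the first siI1 (0.059 to 0.0732). In ES2 NEDD8 was called lower (-0.28, 0.0259), lost without any 1 library except the third siC and first siI1 (0.0641 to 0.0855). SKP1, the adaptor, was at -0.05 in PANC1 and did not pass (0.815).

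Among substrates, the mRNA of the phosphatase CDC25A fell in MV3 from 18.4 ± 1.19 to 9.25 ± 0.544 FPKM (limma adjusted p = 0.000223) and in ES2 from 16.1 ± 1.01 to 10.4 ± 1.71 FPKM (0.0132). PDCD4, a translational repressor, rose in ES2 from 8.79 ± 0.254 to 14.3 ± 0.421 FPKM (0.000572) and in MV3 from 4.31 ± 0.134 to 7.78 ± 0.386 FPKM (0.000228). PDCD4 was called higher in A549 as well (0.66, 0.0132), lost without any 1 library except the second siC and first siI1 (adjusted p 0.0503 to 0.0583). In PANC1 PDCD4 stood at 2.54 ± 0.156 and 2.62 ± 0.939 FPKM. CDC25A was called lower in PANC1 (-0.31, 0.0228), lost without any 1 library except the first siC and second siI1 (0.0545 to 0.0736). Values are of mRNA, whereas β-TrCP acts on the proteins.

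For IGF2 the list held the receptors, their adaptors, the binding proteins and H19, the imprinted neighbour of IGF2. Of 10 tested genes in A549 none was lower and 3 higher, of 5 in ES2 1 was lower and 1 higher, of 8 in MV3 2 were lower and 2 higher, and of 9 in PANC1 2 were lower and 2 higher, with medians of 0.20, 0.07, -0.15 and 0.11. The ligand IGF1 was at 0 in all lines. IGF1R, the signalling receptor, was at 42.7 ± 2.94 FPKM in siC of A549 and at 3.42, 5.93 and 9.19 FPKM in ES2, MV3 and PANC1. IGFBP6, which prefers IGF2 as its ligand, rose in ES2 from 20.4 ± 2.98 to 35.9 ± 4.11 FPKM (limma adjusted p = 0.00732) and in MV3 from 37.2 ± 3.34 to 59.6 ± 3.61 FPKM (0.0011). It was called higher in A549 too (0.57, 0.0167), a call lost without any 1 library except the first and second siC (0.0565 to 0.0675). H19 was expressed in PANC1, where it fell from 54.3 ± 6.92 to 34.1 ± 3.35 FPKM (0.00875), and was below 0.15 FPKM in the other lines. The adaptor IRS1 fell in ES2 (-0.40, 0.00298) and MV3 (-0.21, 0.0149). IRS1 was called higher in A549 (0.22, 0.0474) and PANC1 (0.31, 0.0228); the first call was lost without any 1 of the 6 libraries (0.0697 to 0.123) and the second without any 1 except the second siC and first siI1 (0.0575 to 0.0768). With the same sum of FPKM, IRS1 in PANC1 was at -0.40, above the median of all genes by 0.26.

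For MAPK4 the list held its paralog, the kinases that activate it or are activated by it, the heat shock protein HSPB1 downstream, and the classical kinase MAPK3. Lower and higher calls numbered 1 and 1 of 6 (A549), 2 and 0 of 7 (ES2), 3 and 2 of 7 (MV3) and 1 and 1 of 6 (PANC1), with medians of -0.15, -0.16, -0.08 and -0.05. PAK1, a kinase that activates MAPK4, fell in MV3 from 9.78 ± 0.164 to 6.83 ± 0.343 FPKM (limma adjusted p = 0.000647). HSPB1, or HSP27, fell in A549 (-0.45, 0.00916), was called lower in ES2 (-0.70, 0.0298), lost without any 1 library except the third siC and the first siI1 (0.0905 to 0.0979), and was at -0.08 and 0.47 in MV3 and PANC1. MAPKAPK5, or MK5, the kinase through which MAPK4 is known to reach HSPB1, passed in no line.

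**Figure D4:**
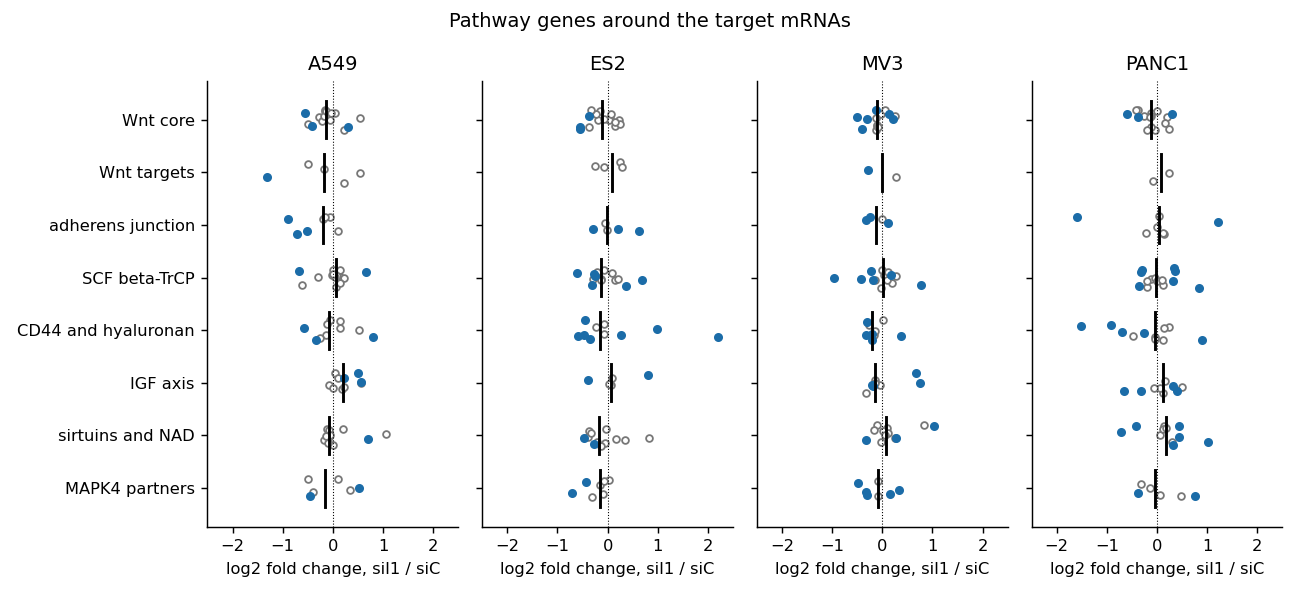
Log2 fold change of siI1 over siC (horizontal axes) of the tested genes of each of the 8 lists, 1 panel per line. Filled points have a limma adjusted p under 0.05, open points do not, and black bars are list medians, which lie between -0.20 and 0.20; vertical position within a list has no meaning.

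The genes whose pattern was most like that of each tested member were sought among 8903 protein-coding genes, by Pearson correlation of the log2 level centred within each line over the 24 libraries. These libraries share their line, siRNA group and depth, so the values are descriptions. Levels were not centred within siRNA group, so genes chosen this way share much of a member's response through the choice itself. For SIRT1 they were EZH2, the methyltransferase of Polycomb complex PRC2 (r = 0.957), TMEM33, a membrane protein of the endoplasmic reticulum (0.941), and SUMF1, the activator of sulfatases (0.939). All 3 had negative log2 fold changes in every line, which the choice favours. They ran from -0.31 to -0.57 for EZH2, from -0.64 to -1.15 for TMEM33 and from -0.58 to -0.81 for SUMF1. The correlation of SIRT1 with IGF2BP1 was 0.883.

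For CD44 they were CERS2, a ceramide synthase (r = 0.928), DDX10, an RNA helicase (0.910), and PAICS, an enzyme of purine synthesis (0.880). These 3 shared the positive value in A549 (0.29, 0.54 and 0.34) and negative values in ES2, MV3 and PANC1, which the choice again favours. For CTNNB1 they were TBC1D2 (0.856), CAVIN1, a coat protein of caveolae (0.851), and PRSS23, a serine protease (0.820). Their log2 fold changes ran over the lines from -0.93 to 0.64, from -0.36 to 0.17 and from -0.64 to 0.50. For BTRC they were the nuclear receptor PPARD (0.788), MAPKBP1 (0.726) and the zinc finger factor ZKSCAN1 (0.723). Theirs ran from -0.32 to 0.12, from -0.55 to 0.41 and from -0.15 to 0.15. With IGF2BP1 itself the correlations were 0.377 for CD44, 0.071 for CTNNB1 and 0.278 for BTRC, all below that of SIRT1.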

How the data were processed

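Each of the 24 libraries was assigned to its group by its own title. For adapter removal the authors used cutadapt 1.14, for alignment to hg38 HISAT2 2.1.0, for counting per gene featureCounts 1.5.3 with an Ensembl annotation, and for the comparison of groups edgeR 3.30.3, as the methods and the submitters' processing notes state. The values the authors deposited, 1 table per line, are FPKM. The unit was worked out from the values: each value times the deposited gene length, divided by the smallest such product above 0 in its library, was a whole number (within 0.01) for 100% of the values above 0, and was taken as reads. The authors' log2 fold change, p-value and FDR columns, from their own comparison, were not used. The number of sample columns left without a sample was 0. Replicates of a group differed beyond sampling noise (chi-square per gene 1.54 to 15.1 over 24 pairs) and were counted separately. All 37 mitochondrial genes were at 0 in every library.

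Each line was tested on its 6 libraries, without covariates, with limma 3.58.1 in R 4.3.3 (lmFit, eBayes with trend, two-sided) on log2(FPKM + 0.5), a scale that understates changes of low genes. The minimum for testing was a mean of 0.5 FPKM, with Benjamini-Hochberg adjustment over all of them and a threshold of 0.05. A fit of all 24 libraries gave the mean of the 4 line effects and the F-test of their difference, over genes that passed the minimum in every line. The genes named are the 6 members, IGF2BP1, the 96 genes of 8 lists and, for each tested member, the 3 genes most like it among those that averaged 1 FPKM or more in each line. A gene first placed on these lists and a cell type marker are not reported here, for a reason unrelated to their values, and the counts do not hold them. Members and lists were chosen with earlier results of these data known. Alternatives were a pseudocount of 0.1 or 1, a minimum of 1 FPKM or none, other scalings, voom on the recovered reads, a replicate block, a shared spread and leaving out each library. Intervals of read ratios are Clopper-Pearson and cover counting error only, as does the floor of 3 reads. Sequences came from GENCODE 44 (hg38) and RefSeq, and coordinates count from 1; protein sequences were not used here. Python 3.11.15 with scipy 1.17.1 was used for the rest.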

Additional observations from a re-analysis of the deposited data

Results flagged for a closer look

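The response to knockdown differed between the 4 lines for 3 of the genes described, by the F-test of the line-by-siRNA interaction in limma. For CD44 the adjusted p was 2.16e-05, with log2 fold changes of 0.20 (A549), -0.07 (ES2), -0.25 (MV3) and -0.11 (PANC1). For CTNNB1 it was 0.0142, with -0.15, 0.06, 0.00 and 0.03 in the same order, and 0.0578 with the replicate block, past the threshold no longer. For IGF2BP1 itself it was 9.77e-05, with -1.32, -1.55, -1.52 and -1.83, so the depth of the knockdown also differed between lines. Of all genes tested in every line, 45.0% passed this test. Harvest came at 96 h in PANC1 and at 72 h in the other lines, and time and line cannot be told apart in this design.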

How the results depend on the processing

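SIRT1 kept a negative log2 fold change in every line under every alternative run, with a mean over the lines from -0.71 to -0.50 and adjusted p-values of at most 2.08e-05. The number of members called in A549, 1 in the main test, was 0 with no minimum level, with the same sum of FPKM and with the replicate block, and 3 with a shared spread and with voom; it was 0 to 0 when libraries were left out in turn. In ES2 it was 1, and 0 with the same sum of FPKM (1 to 1 with a library left out). In MV3 it was 2, and 3 with the same total reads (BTRC, 0.17, adjusted p 0.0231), and 1 to 2 with a library left out. In PANC1 it was 1, and 2 with a shared spread and with the same total reads, and 4 with the same sum of FPKM (1 to 1 with a library left out). On average over the lines it was 2, and 3 with no minimum level (IGF2 added) and 4 with the same sum of FPKM. Members whose response differed between lines numbered 2, and 3 with the same total reads and 4 with the same sum of FPKM. Their number was 1 with the replicate block (CTNNB1 lost, adjusted p 0.0578), and 2 to 3 with a library left out. Signs turned for CD44 in ES2 with the same sum of FPKM (0.00, just above 0), for CTNNB1 in MV3 with that scaling and without siC replicate 3, siI1 replicate 2 or siI1 replicate 3 (-0.01 each; range over left-out libraries -0.01 to 0.02), and for CTNNB1 in PANC1 with the same total reads (-0.13) and the same sum of FPKM (-0.71), which lie at 0.05 and -0.05 from the medians of all genes under those scalings (-0.18 and -0.66). Of 620 values of single genes under alternatives, 586 kept direction and side of the threshold, among them all 124 of IGF2BP1. Of 105 calls of listed genes in single lines, 48 held under all alternatives run and 9 changed sign, all in PANC1 with the same sum of FPKM, a scaling that moved all genes together. Relative to the median of all genes 0 of these 9 turned.

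Replicate numbers did not pair the samples: same-numbered siC and siI1 libraries correlated between -0.0562 and 0.0711 in their deviations from the group means. The replicate block left SIRT1 called in ES2, MV3 and PANC1. The planned tests with edgeR and DESeq2 were not run, because the deposited values are FPKM. IGF2 (at most 22 reads per library) and MAPK4 (none) stayed below the level for testing in all lines, and SIRT1 in the siI1 libraries of A549 rested on 87 to 97 reads each.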
